A study of Mus musculus with 35 samples.

Results

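Mice given 4 doses of ActRIIB-Fc were compared with control mice, on the 16 of the study's 35 arrays whose titles name one of these classes. There were 8 arrays in each class, 3 from a first experiment and 5 from an independent follow-up. All mice were females aged 2 months, and each array held RNA from the quadriceps muscle of the thigh. The remaining arrays, from mice given 1 dose of ActRIIB-Fc (3 and 5) and from Mstn-null mice (3 and 8), share the estimate of the spread with these 16 and are described below only where they show how 4 doses differ from 1 dose or from genetic loss of the ligand. The labels call the arrays of a class biological replicates, and they give neither the strain, the amount and timing of a dose, nor what the control mice received.

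ActRIIB-Fc joins the ligand-binding part of the activin type IIB receptor to an antibody Fc part, and as a soluble decoy it binds several ligands of that receptor. These ligands include myostatin, the product of Mstn, which muscle fibres secrete and which limits muscle growth, and also activins and the myostatin relative GDF11. At the cell surface such ligands assemble type II and type I receptors, which phosphorylate Smad2 and Smad3. The decoy is known to enlarge muscle in mice, also where Mstn is absent, and the design asks which transcripts differ after repeated dosing.

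Values are log2 expression values, so a difference of 1 is a 2-fold difference. Array medians were 4.39 to 4.52 in experiment 1 and 6.06 to 6.20 in experiment 2 over these 16 arrays, and levels are therefore compared only within an experiment. Arrays of the same group correlated with each other across genes at 0.977 to 0.996. All 10 skeletal muscle genes checked, among them Ckm, Acta1 and Myh4, were at 10.3 or higher on every array of experiment 1 and at 11.9 or higher in experiment 2, above the upper quartile of every array (at most 6.18 and 7.84). Changes below are differences between classes from a limma fit of class and experiment over all 35 arrays, with their standard error (SE), and set 8 treated against 8 control arrays. A gene was called when its Benjamini-Hochberg adjusted p, over all 19938 genes, was under 0.05, and "rose" and "fell" are used only of called genes. Precision is limited by the number of arrays.

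After 4 doses, 626 genes were called, which is 3.14% of those tested. Of these, 380 rose (1.91%) and 246 fell (1.23%), the shares to set beside each list count against control below. A single call in a short list says little about the list. When each array was centred on its median, 232 genes rose and 317 fell, which put 42.3% of calls on the higher side in place of 60.7%. A fit of the 16 treated and control arrays alone called 964 genes, 501 higher and 463 lower (52.0% of calls higher). Most changes were small: 10 called genes rose at least 2-fold and 16 fell at least 2-fold, and the median change of all genes was 0.02. By level, the median change ran from 0.06 in the fourth of 10 bins of mean expression to -0.05 in the ninth. Of the 626 genes, 613 moved the same way in each experiment. All treated arrays lay above all control arrays within each experiment for 174 genes (0.873%), of which 138 were called. They lay below for 161 genes (0.808%), of which 107 were called. Tested alone, the first experiment gave 94 genes and the follow-up 590. For the genes that rose over both, the median change was 0.31 in experiment 1 and 0.46 in experiment 2, and for those that fell it was -0.41 and -0.49.

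**Figure D1:**
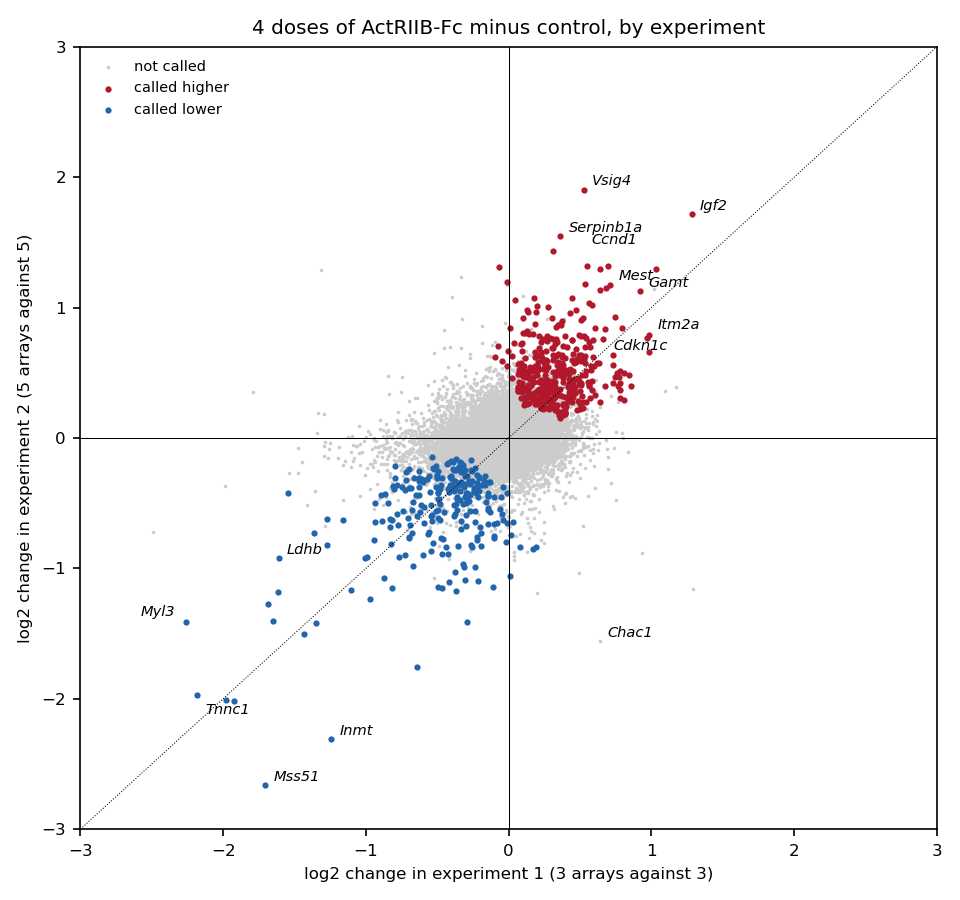
Log2 change after 4 doses in experiment 1 (x axis) and experiment 2 (y axis), 1 point per gene for all 19938 genes, with genes that rose or fell over both experiments coloured and a dotted line where both changes are equal. Most coloured points share their sign on both axes (613 of 626). Over both experiments together, Igf2 had the largest rise and Mss51 the largest fall of the named genes.

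The ligands that the decoy binds, and their receptors, were also measured as transcripts. Of 29 ligand and receptor genes, 2 rose and 0 fell, with a median change of 0.07. Over all genes 1.91% rose and 1.23% fell. At an unadjusted p under 0.05 by limma, 8 of the 29 differed, 4 higher and 4 lower. Gdf11 was at 6.25, 6.27 and 5.98 on the control arrays of experiment 1 and at 6.65, 6.67 and 6.72 after 4 doses. In experiment 2 it was at 6.80, 7.01, 6.96, 6.68 and 6.93 in controls and at 7.54, 7.46, 7.84, 7.63 and 7.11 after 4 doses. Every treated array was above every control array in both experiments, and Gdf11 rose by 0.59 ± 0.09 (SE, adjusted p = 7.1e-05). Tgfb1, which encodes transforming growth factor beta 1, rose by 0.33 ± 0.09 (adjusted p = 0.0357). That call was lost in 10 of the 16 fits that each left out 1 control or 4-dose array, the fits meant by such counts below.

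Mstn itself was 0.38 ± 0.25 higher and did not pass the test (adjusted p = 0.509). Its 3 values after 4 doses in experiment 1, at 7.58, 8.47 and 6.86, overlapped the control values of 7.60, 6.77 and 7.68. In experiment 2 the treated arrays were at 10.23 to 10.79 and the controls at 9.84 to 10.21, so the groups did not overlap there. Acvr2b, the cell's own form of the receptor that ActRIIB-Fc copies, differed by 0.01 ± 0.10 (adjusted p = 0.97). The sister receptor Acvr2a differed by 0.22 ± 0.14 (adjusted p = 0.473), and Inhba, which encodes the activin A subunit, by -0.01 ± 0.09 (adjusted p = 0.965). The type I receptor Acvr1b differed by -0.37 ± 0.13, also without passing (adjusted p = 0.127).

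A list of 13 antagonists and related proteins of the wider transforming growth factor beta family holds, among others, Fst, Nog, Chrd and Ltbp1. Of the 13, 1 rose and 0 fell. This was Fstl1, a secreted follistatin-like glycoprotein, which rose by 0.62 ± 0.15 (adjusted p = 0.011). Its change was 0.92 in experiment 2, where all 5 treated arrays (9.11 to 9.60) were above the controls (8.02 to 8.71), and 0.10 in experiment 1, where the groups overlapped. Fst, which encodes follistatin, differed by -0.06 ± 0.06 (adjusted p = 0.734). Of 21 Smads and Smad feedback targets, 0 rose and 1 fell. Pmepa1, a feedback inhibitor that transforming growth factor beta induces, fell by 0.44 ± 0.10 on the log2 scale (adjusted p = 0.00705). Its 3 treated arrays in experiment 1 were at 6.46 to 6.52 against 7.08 to 7.31 in controls, and in experiment 2 it was at 7.69 to 7.95 against 7.94 to 8.21, where the groups overlapped.

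Igf2, which encodes insulin-like growth factor 2, an imprinted growth factor made at high level before birth, had the largest rise of all named genes. On the control arrays it was at 6.27, 6.45 and 5.91 in experiment 1 and at 7.82, 7.86, 7.99, 7.72 and 7.73 in experiment 2. After 4 doses it was at 7.43, 7.30 and 7.75, and at 9.39, 9.75, 9.80, 9.23 and 9.53. The groups did not overlap in either experiment, and their means differed by 1.28 and 1.72. Over both, Igf2 rose by 1.55 ± 0.10 (2.94-fold, adjusted p = 2.84e-13).

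Several other imprinted genes rose with it. Of 19 imprinted growth genes, 5 rose and 0 fell, against 1.91% of all genes that rose, and the median change of the list was 0.24 against 0.02 for all genes. Mest, a paternally expressed gene of the fetal growth network, was at 3.92 to 4.06 in the controls of experiment 1 and at 5.47 to 6.03 in those of experiment 2. After 4 doses it was at 4.64, 5.16 and 4.27 and at 7.14, 6.89, 6.76, 7.21 and 7.42. Mest rose by 1.09 ± 0.11 (adjusted p = 5.95e-08), with no overlap in either experiment.

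Cdkn1c, which encodes the cyclin-dependent kinase inhibitor p57, was at 6.31 to 6.63 and 8.04 to 8.25 in controls. It was at 7.25, 7.10 and 7.10, and at 9.05, 9.05, 8.82, 8.87 and 8.93, after 4 doses. The treated groups were tight and clear of the controls, and Cdkn1c rose by 0.78 ± 0.07 (adjusted p = 7.9e-09). Grb10, an adaptor that restrains insulin and IGF receptor signalling, rose by 0.48 ± 0.07 (adjusted p = 2.06e-05), and Peg10, a gene derived from a retrotransposon, by 0.45 ± 0.08 (adjusted p = 0.000517). For all 5 genes every treated array was above every control array in both experiments. Cdkn1c was the 1 gene to rise among 16 inhibitors of the cell cycle, and 0 of them fell.

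Other members of the IGF system moved less. Of 17 ligands, receptors and binding proteins, 2 rose and 1 fell. Igfbp5, the IGF binding protein of regenerating and differentiating muscle, rose by 0.60 ± 0.11 (adjusted p = 0.000523), from 8.69 to 9.13 in controls to 9.47 to 9.73 in experiment 1. In experiment 2 its values of 10.72 to 11.43 overlapped the controls at 10.11 to 10.86. Igfbp3, a carrier of circulating IGFs, fell by 0.48 ± 0.08 (adjusted p = 0.000197) with no overlap in either experiment. Igf1 was 0.45 ± 0.16 higher (adjusted p = 0.147) and the receptor gene Igf1r differed by -0.10 ± 0.10 (adjusted p = 0.714), and neither passed the test. Igf2r, whose product clears IGF2, differed by 0.15 ± 0.11 (adjusted p = 0.559).

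**Figure D2:**
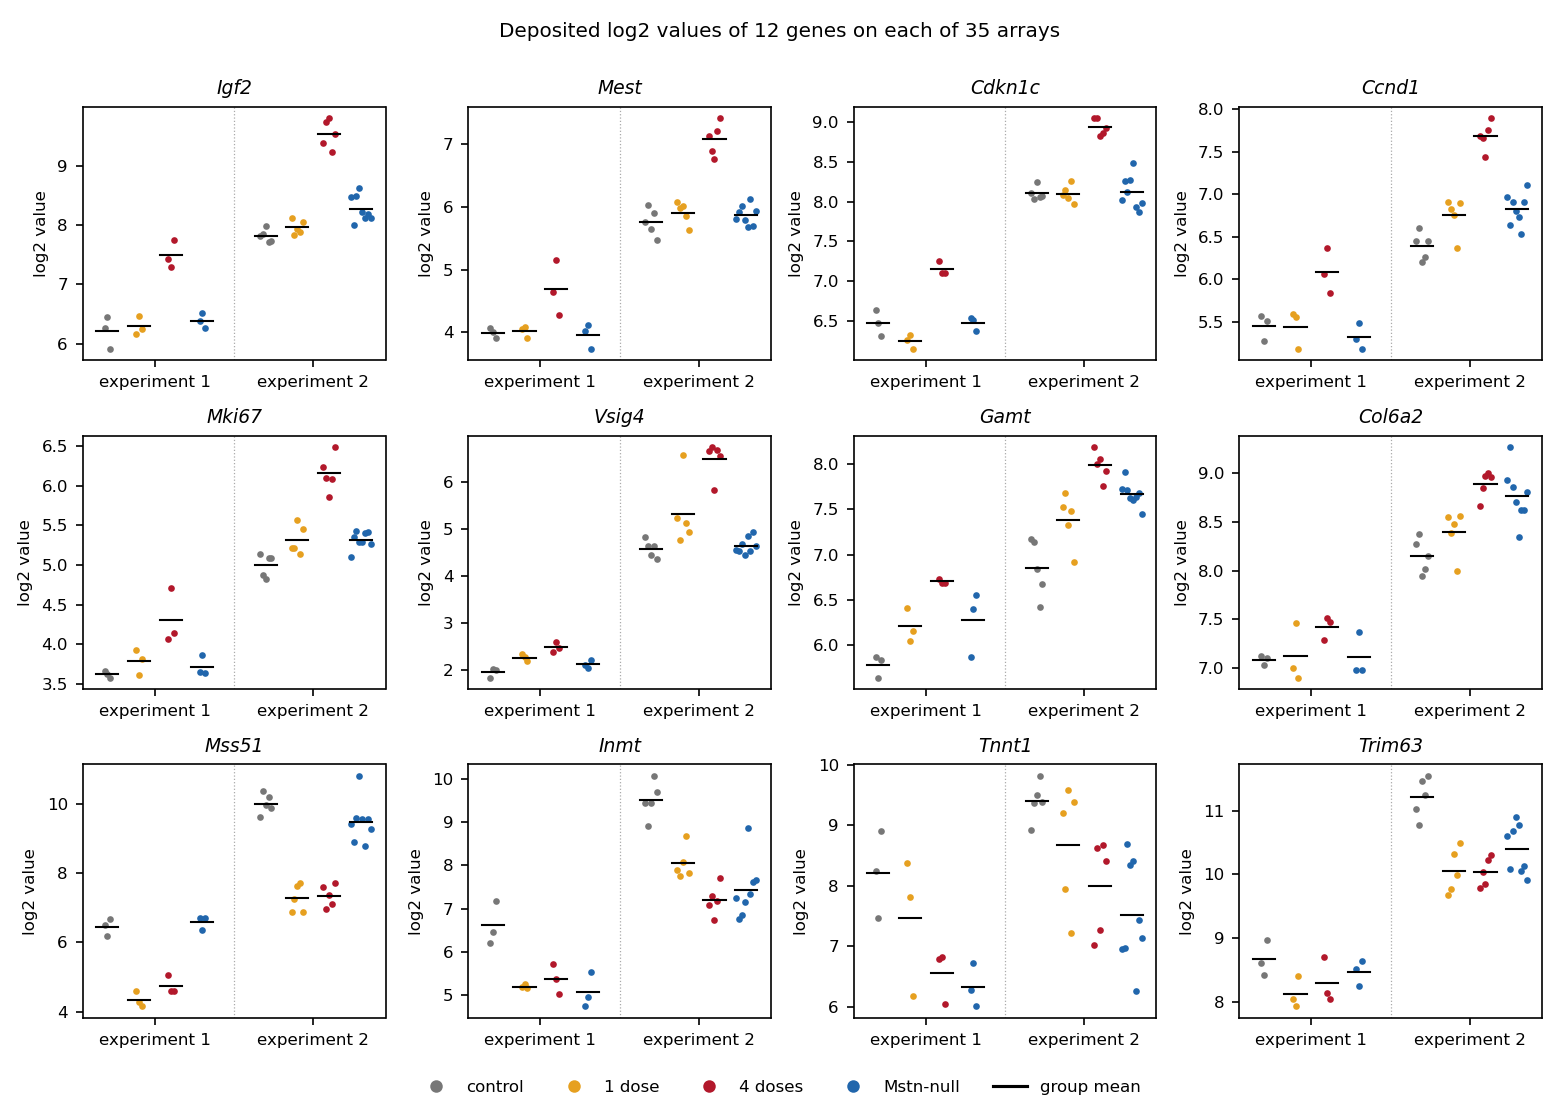
Log2 value of 12 genes on each of the 35 arrays, grouped by class and experiment, with 1 point per array and a bar at the group mean. Igf2, Mest and Cdkn1c stand apart on the 4-dose arrays, while Mss51 is low after 1 dose and after 4 doses, and Inmt is also low in Mstn-null muscle.

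Many genes of cell division rose after 4 doses. Of 61 cell cycle and proliferation genes measured, 25 rose and 0 fell, against 1.91% and 1.23% of all genes. The median change was 0.21, and 54 of the 61 had a positive change. Mki67, the proliferation marker Ki-67, was at 3.66, 3.63 and 3.58 in the controls of experiment 1 and at 4.07, 4.71 and 4.14 after 4 doses. The follow-up put it at 5.14, 4.87, 4.82, 5.09 and 5.09 in controls and at 6.24, 6.1, 5.86, 6.08 and 6.48 after 4 doses. No treated array overlapped the controls, and Mki67 rose by 0.98 ± 0.09 (adjusted p = 7.9e-09).

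Ccnd1, the G1 cyclin D1, rose by 1.05 ± 0.11 (adjusted p = 3.64e-08), from 5.27 to 5.57 in controls to 5.84 to 6.37 in experiment 1 and from 6.20 to 6.60 to 7.44 to 7.89 in experiment 2. Ccna2, the S and G2 phase cyclin A2, rose by 0.94 ± 0.10 (adjusted p = 2.12e-07). Top2a, the topoisomerase of dividing cells, rose by 0.95 ± 0.11 (adjusted p = 3.84e-07). For these genes too the groups were apart in both experiments. The mean over the list was at 4.23 to 4.34 on the treated arrays of experiment 1 against 4.09 to 4.16 in controls, and at 6.03 to 6.13 against 5.73 to 5.79 in experiment 2. Most list members were dim: when the dimmest 25% of all genes were left out, 15 members rose.

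Promoters of late cell cycle genes are known to carry a short element that the MuvB complex binds, together with CCAAT boxes that NF-Y binds. The stretches below hold both kinds in the RefSeq promoter windows of mouse assembly GRCm38.p6, each running from 250 bases before to 50 after a gene's start. They are shown for Mki67 and Top2a, 2 of the largest rises, and for Kif23 and Racgap1, chosen after their values were seen because their stretches were the shortest of the genes that rose. The stretches lie at chr7:135716452-135716587 (Mki67), chr11:99024187-99024436 (Top2a), chr9:61946772-61946826 (Kif23) and chr15:99651626-99651688 (Racgap1). All 4 are printed 5' to 3' on the minus strand, which is the strand of the gene, with 20 bases either side. Capitals mark the element TTTGAA, which reads TTCAAA on the opposite strand, its variant TTTAAA, and the box CCAAT, which reads ATTGG on the opposite strand.
Mki67: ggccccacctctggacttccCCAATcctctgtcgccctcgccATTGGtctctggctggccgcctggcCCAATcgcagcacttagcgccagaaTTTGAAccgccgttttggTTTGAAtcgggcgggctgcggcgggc
Top2a: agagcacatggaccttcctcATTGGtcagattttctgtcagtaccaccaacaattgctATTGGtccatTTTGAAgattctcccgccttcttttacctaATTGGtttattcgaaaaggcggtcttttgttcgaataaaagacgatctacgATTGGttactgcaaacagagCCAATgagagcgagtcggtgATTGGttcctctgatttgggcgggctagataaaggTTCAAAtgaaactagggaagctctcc
Kif23: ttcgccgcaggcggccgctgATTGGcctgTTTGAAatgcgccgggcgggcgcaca
Racgap1: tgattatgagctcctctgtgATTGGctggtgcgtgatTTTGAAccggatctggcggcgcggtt
Kif23, a kinesin of the cleavage furrow, rose by 0.51 ± 0.07 (adjusted p = 3.34e-06), and Racgap1, its partner in the centralspindlin complex, by 0.36 ± 0.07 (adjusted p = 0.002). Of the 25 cell cycle genes that rose, 21 had a window in the table. The element in either form, searched on both strands, was in the windows of 19 of them (90.5%), and the CCAAT box, on both strands, in those of 19 (90.5%), with both in 18 (85.7%). The 29 list members that were not called and had a window held the first in 41.4%, the second in 51.7% and both in 27.6%. Over all 27025 genes of the table the shares were 30.6%, 41.1% and 12.2%. A match is a description of the letters, not evidence of binding or of a cause.

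Macrophage and myeloid genes were higher after 4 doses, most of all in the follow-up. Of 31 such markers, 14 rose and 0 fell, against 1.91% and 1.23% of all genes, with a median change of 0.35. The median was 0.14 in experiment 1 and 0.45 in experiment 2. Lcp2, an adaptor of immune receptor signalling, rose by 0.40 ± 0.07 (adjusted p = 0.000656), and Mpeg1, a pore-forming protein of macrophages, by 0.64 ± 0.12 (adjusted p = 0.00131). Laptm5, a lysosomal protein of blood cells, rose by 0.67 ± 0.13 (adjusted p = 0.00134), and the macrophage lysosomal protein Cd68 by 0.68 ± 0.14 (adjusted p = 0.00298). The mean over the markers was at 6.43 to 6.58 on the treated arrays of experiment 2 against 5.94 to 6.11 in controls, clear of each other. In experiment 1 it was at 4.41 to 4.53 against 4.19 to 4.48, which overlapped.

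Vsig4, a complement receptor of tissue-resident macrophages, had the second largest rise of the named genes. On the arrays of experiment 2 it was at 4.83, 4.62, 4.43, 4.64 and 4.36 in controls and at 6.65, 6.73, 5.81, 6.68 and 6.54 after 4 doses. In experiment 1 it lay among the lowest values of the arrays, at 1.84, 2.02 and 2.01 in controls and at 2.39, 2.60 and 2.46 after 4 doses. The groups were apart in both, with changes of 1.91 in experiment 2 and 0.53 in experiment 1. Over both, Vsig4 rose by 1.39 ± 0.20 (adjusted p = 2.69e-05). Of 18 resident macrophage markers, 5 rose and 0 fell, and the remaining 4 were Timd4 (0.44), Cbr2 (0.51), Cd163 (0.55) and Cd209f (0.80). Cd209f, a lectin of resident macrophages, had a change of 1.31 in experiment 2 and of -0.07 in experiment 1. Its call was lost in 5 of the 16 fits that left out 1 array, and that of Cd163 in 3. The list median was 0.42 in experiment 2 and -0.04 in experiment 1.

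Related immune lists also held genes that rose over both experiments, although the complement median was slightly negative in experiment 1. Of 13 genes of antigen presentation on MHC class II, 4 rose and 0 fell, namely Ctss (0.73), H2-Aa (0.66), H2-Ab1 (0.60) and Itgax (0.35). The calls of H2-Ab1 and Itgax were lost in 7 and 10 of the 16 fits that left out 1 array. Of 16 complement genes, 5 rose and 0 fell, led by the anaphylatoxin receptors C3ar1 (0.58 ± 0.11, adjusted p = 0.00115) and C5ar1 (0.49 ± 0.10, adjusted p = 0.00215). Of 25 chemokines and myeloid chemokine receptors, 5 rose and 0 fell. Ccr2, the receptor that draws monocytes into tissue, rose by 0.68 ± 0.10 (adjusted p = 3.84e-05) and was above the controls on every array. The chemokine Ccl9 rose by 0.70 ± 0.15 (adjusted p = 0.00319), with overlap in experiment 1. Cxcl13, Ccl6 and Ccl7 also rose, with changes of 0.07 to 0.14 in experiment 1 and of 0.36 to 0.98 in experiment 2.

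Of 18 markers of lymphocytes 0 were called by limma (1 at an unadjusted p under 0.05), and their mean was at 5.07 to 5.34 on the treated arrays of experiment 2 against 5.09 to 5.23 in controls. Of 23 interferon response genes, 0 were called (5 at an unadjusted p under 0.05, all higher). Among endothelial markers 2 of 21 rose and 1 fell, with a median change of -0.06. Aplnr, the apelin receptor, rose by 0.73 ± 0.12 (adjusted p = 0.000153), and its ligand Apln by 0.34 ± 0.08 (adjusted p = 0.0102). The change of Apln was 0.15 in experiment 1, where the groups overlapped, and 0.45 in experiment 2. The gene that fell was Flt1 (-0.40 ± 0.10, adjusted p = 0.0223), with a change of -0.13 and overlap in experiment 1 and of -0.56 in experiment 2. Serpinb1a, an inhibitor of neutrophil proteases, and Cd93, a receptor of endothelial and myeloid cells, were among the 15 largest rises at 1.10 ± 0.16 (adjusted p = 3.67e-05) and 0.86 ± 0.16 (adjusted p = 0.000817). Both overlapped the controls in experiment 1. In whole muscle, more cells of a type and more RNA per cell cannot be told apart, and their part in these results was not tested.

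Some genes of the extracellular matrix rose too. Of 46 measured, 11 rose and 0 fell, and the median change was 0.09 in experiment 1 and 0.31 in experiment 2. Col6a2, a chain of the collagen VI that surrounds fibres, was at 7.13, 7.03 and 7.10 in the controls of experiment 1 and at 7.29, 7.51 and 7.47 after 4 doses. Experiment 2 gave 8.27, 8.38, 7.94, 8.01 and 8.15 in controls and 8.67, 8.85, 8.97, 9.0 and 8.96 after 4 doses. The groups did not overlap, and Col6a2 rose by 0.59 ± 0.11 (adjusted p = 0.00118). Mfap2, a microfibril protein, rose by 0.39 ± 0.07 (adjusted p = 0.000523). Col15a1 of the basement membrane zone and the fibril-associated Col14a1 rose by 0.59 ± 0.12 and 0.62 ± 0.13 (adjusted p = 0.00236 for both).

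Markers of fibro-adipogenic progenitors, the stromal cells that make much of this matrix, had a median change of 0.28. Of 16, 3 rose and 0 fell: Smoc2 (0.54 ± 0.08, adjusted p = 2.23e-05), Col15a1 and Cd34 (0.38 ± 0.11, adjusted p = 0.0482). The Cd34 call was lost in 12 of 16 fits that left out 1 array. Their mean was at 8.57 to 8.78 on the treated arrays of experiment 2 against 8.15 to 8.38 in controls, and it overlapped in experiment 1 (6.49 to 6.67 against 6.27 to 6.79). Of 15 tendon markers, 0 were called (2 at an unadjusted p under 0.05). Among matrix proteases and their inhibitors, Adamts12 rose by 0.60 ± 0.10 (adjusted p = 0.000298) and Timp4 fell by 0.85 ± 0.18 on the log2 scale (adjusted p = 0.00339), out of 18. Adipocyte markers went the other way, as given with the metabolic genes below.

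Among genes of muscle precursors and differentiation, 4 of 26 rose and 0 fell. Mymk, which encodes the fusion protein myomaker, was at 4.72 to 5.15 and 6.33 to 6.73 in controls and at 5.18 to 5.61 and 6.92 to 7.20 after 4 doses. It rose by 0.48 ± 0.09 (adjusted p = 0.000541) without overlap. The myocyte enhancer factor coactivator Mamstr rose by 0.49 ± 0.10 (adjusted p = 0.00282), the adhesion molecule Vcam1 by 0.34 ± 0.08 (adjusted p = 0.00904) and Chrdl2 by 0.26 ± 0.07 (adjusted p = 0.036), a call lost in 9 of the 16 fits that left out 1 array.

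Of 15 developmental and stress-induced sarcomere genes, 2 rose and 0 fell. Actc1, the cardiac actin of fetal and regenerating muscle, was at 11.25, 11.03 and 11.31 in the controls of experiment 1 and at 11.68, 11.73 and 11.71 after 4 doses. In experiment 2 it was at 13.17 to 13.55 in controls and at 14.15 to 14.25 after 4 doses, near the top of the array's range. It rose by 0.68 ± 0.08 (adjusted p = 4.98e-07) with tight treated groups. Mybph, a myosin binding protein, rose by 0.50 ± 0.08 (adjusted p = 0.000107). Of 20 fast fibre contractile genes, 3 rose and 0 fell, with a median change of 0.06 that became -0.01 under quantile normalization. The fast myosin light chains Myl1 and Mylpf rose by 0.34 ± 0.07 (adjusted p = 0.00293) and 0.28 ± 0.06 (adjusted p = 0.00536).

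Slow fibre genes made up 9 of the 15 largest named falls, and they varied widely between arrays. Of 18 slow fibre contractile genes, 0 rose and 11 fell, against 1.91% and 1.23% of all genes, with a median change of -1.14. Tnnt1, the slow troponin T, was at 8.25, 7.46 and 8.90 in the controls of experiment 1 and at 6.79, 6.82 and 6.04 after 4 doses. The follow-up put it at 8.92, 9.37, 9.50, 9.82 and 9.38 in controls and at 7.02, 8.62, 7.26, 8.66 and 8.41 after 4 doses. All treated values were lower, and the first and the third array of experiment 2 were far below the other 3. Tnnt1 fell by 1.5 ± 0.34 on the log2 scale (2.82-fold lower, adjusted p = 0.00753), and its call held in each of the 16 fits that left out 1 array.

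Myh7, the slow myosin heavy chain, was at 9.34, 7.49 and 9.74 in the controls of experiment 1 and at 7.23, 7.31 and 6.09 after 4 doses. On the arrays of experiment 2 it was at 10.12, 10.52, 10.75, 11.02 and 10.68 in controls and at 7.24, 9.61, 7.27, 9.53 and 9.37 after 4 doses. It fell by 2.00 ± 0.50 on the log2 scale (adjusted p = 0.0171), with the same arrays low as for Tnnt1. The calcium pump of slow fibres Atp2a2 fell by 1.39 ± 0.35 (adjusted p = 0.0167) and the oxygen carrier myoglobin, Mb, by 0.94 ± 0.24 (adjusted p = 0.0217). Tnnc1, Myl2, Myl3, Tnni1, Tpm3 and Myoz2, of the slow troponin, myosin light chain, tropomyosin and Z-disc apparatus, fell too, with changes from -1.34 to -2.05 and adjusted p from 0.0234 to 0.0494. Each of these 6 calls was lost in 3 to 12 of the 16 fits that left out 1 control or 4-dose array. Myl6b, the one other gene of the list that fell, did so by 0.34 ± 0.09 (adjusted p = 0.0291). The call of Myl6b was lost in 7 of those fits, that of Mb in 2, and those of Myh7 and Atp2a2 in 1 each.

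The count of slow fibre calls rested on single arrays. Without 4-dose array 3 of experiment 2 it was 1, and without 4-dose array 1 of that experiment it was 4. It was 5 without 4-dose array 3 of experiment 1 or control array 3 of experiment 1. It was 7, 7 and 6 without control array 1 of experiment 1 and control arrays 3 and 4 of experiment 2. Neither experiment alone gave any call, although the list median was -1.32 in experiment 1 and -1.04 in experiment 2. The mean over the 18 genes was at 6.14 to 6.93 on the treated arrays of experiment 1 against 7.09 to 8.27 in controls, and at 7.80 to 9.11 against 9.38 to 9.90 in experiment 2.

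**Figure D3:**
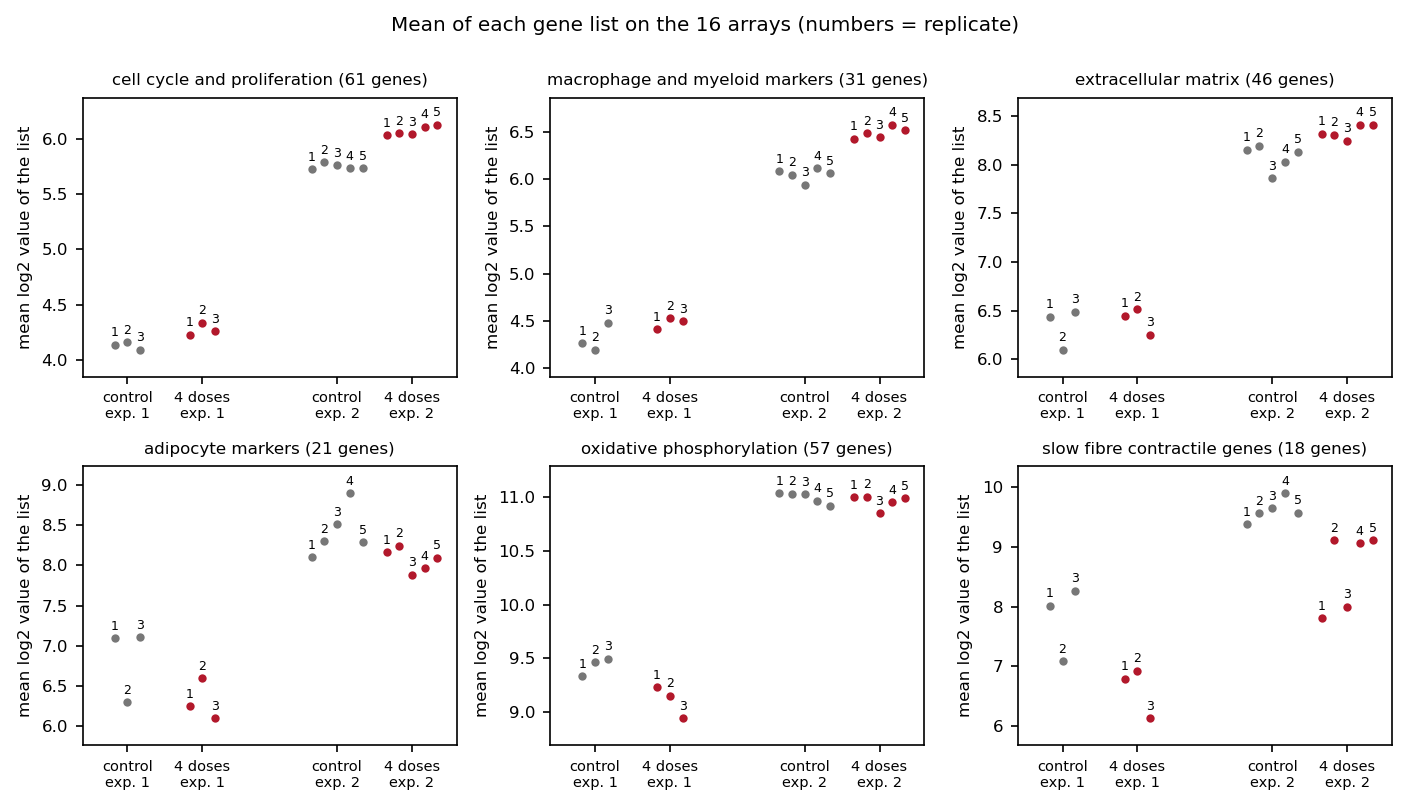
Mean log2 value of the measured members of 6 gene lists on each of the 16 arrays (y axis), by class and experiment (x axis), with the replicate number beside each point. Cell cycle means are apart in both experiments, macrophage and matrix means in experiment 2, and the slow fibre means of treated arrays 1 and 3 of experiment 2 lie far below the other 3.

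Genes of the Z-disc, M-band and thin filament were mixed, with 2 of 21 that rose and 3 that fell. Lmod2, which sets thin filament length, fell by 1.14 ± 0.24 on the log2 scale (adjusted p = 0.00383), Tcap, the titin cap, by 0.73 ± 0.16 (adjusted p = 0.00588), and Myom3, an M-band protein, by 0.68 ± 0.14 (adjusted p = 0.00309). Pdlim3, an actinin-binding Z-disc protein, rose by 0.50 ± 0.08 (adjusted p = 0.000137). In the dystrophin complex, the neuronal nitric oxide synthase gene Nos1 was at 7.39 to 7.65 and 8.56 to 8.73 in controls and at 6.77 to 6.83 and 7.73 to 8.03 after 4 doses. It fell by 0.74 ± 0.14 (adjusted p = 0.00119) without overlap, and 2 of 15 genes of that list fell in all.

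Mss51, a mitochondrial protein of skeletal muscle, had the largest fall. It was at 6.51, 6.18 and 6.67 in the controls of experiment 1 and at 5.07, 4.59 and 4.59 after 4 doses. Experiment 2 gave 9.63, 10.38, 9.95, 10.20 and 9.89 in controls and 7.60, 6.96, 7.36, 7.11 and 7.70 after 4 doses. The gap between the groups was wider than the spread within either, and Mss51 fell by 2.31 ± 0.20 on the log2 scale (4.94-fold lower, adjusted p = 7.88e-10). Of the 17 regulators of mitochondrial genes, 0 rose and 4 fell. Besides Mss51 these were Esrrg (-0.57 ± 0.10, adjusted p = 0.000805), Ppara (-0.58 ± 0.11, adjusted p = 0.00112) and Esrrb (-0.34 ± 0.07, adjusted p = 0.00353), nuclear receptors that drive oxidative genes.

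The respiratory chain itself showed no calls. Of 57 oxidative phosphorylation genes, 0 rose and 0 fell by limma (8 were lower at an unadjusted p under 0.05), with a median change of -0.28 in experiment 1 and -0.03 in experiment 2. Their mean was at 8.95 to 9.23 on the treated arrays of experiment 1 against 9.34 to 9.50 in controls, and it overlapped in experiment 2. Of 20 genes of the tricarboxylic acid cycle 1 fell, Idh2 (-0.66 ± 0.14, adjusted p = 0.00469). Among 25 genes of fatty acid uptake and oxidation, 0 rose and 3 fell, with a median of -0.33. Lpl, the lipase that frees fatty acids from lipoproteins, fell by 0.86 ± 0.16 (adjusted p = 0.00115), the fat droplet lipase Pnpla2 by 0.53 ± 0.12 (adjusted p = 0.00515) and the droplet protein Plin5 by 0.47 ± 0.11 (adjusted p = 0.00541).

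Adipocyte markers had a median change of -0.39, and 20 of 21 were negative, with 3 that fell: Plin4 (-0.66 ± 0.11, adjusted p = 0.000182), Lpl and Dgat2 (-0.83 ± 0.21, adjusted p = 0.0195). Their mean was at 6.09 to 6.59 on the treated arrays of experiment 1 against 6.29 to 7.11 in controls, and at 7.88 to 8.25 against 8.11 to 8.90 in experiment 2. Both pairs of ranges overlapped, and the part of fat tissue in the lipid gene results was not tested. Of 26 glycolysis and glucose uptake genes, 0 rose and 3 fell. These were Ldhb, the heart-type lactate dehydrogenase subunit (-1.18 ± 0.23, adjusted p = 0.00148), Tbc1d1, a regulator of glucose transporter traffic (-0.66 ± 0.16, adjusted p = 0.00977), and the insulin-responsive transporter Slc2a4 (-0.43 ± 0.11, adjusted p = 0.0145). Bdh1, an enzyme of ketone body use, fell by 1.14 ± 0.14 (adjusted p = 2.6e-06).

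A pair of methyltransferases stood among the largest changes, in opposite directions. Gamt, which completes creatine synthesis, was at 5.87, 5.64 and 5.83 in the controls of experiment 1 and at 6.74, 6.69 and 6.69 after 4 doses. In experiment 2 it was at 7.18, 7.14, 6.84, 6.43 and 6.68 in controls and at 8.19, 8.00, 8.06, 7.76 and 7.92 after 4 doses. Gamt rose by 1.05 ± 0.11 (adjusted p = 2.85e-08) with no overlap. Inmt, which methylates tryptamine and related amines, was at 6.21, 6.46 and 7.17 and at 9.43, 8.90, 9.45, 10.07 and 9.69 in controls. It was at 5.71, 5.37 and 5.03 and at 7.08, 7.29, 6.73, 7.18 and 7.71 after 4 doses. All treated arrays were below all controls, and Inmt fell by 1.91 ± 0.23 on the log2 scale (3.76-fold lower, adjusted p = 9.2e-07).

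Trim63 and Fbxo32, the main ubiquitin ligases of muscle atrophy, both fell. Of 34 genes of atrophy, FoxO signalling and autophagy, 0 rose and 5 fell, against 1.91% and 1.23% of all genes. The median change was -0.13. Trim63, the ligase MuRF1, was at 11.03, 10.78, 11.47, 11.26 and 11.55 in the controls of experiment 2 and at 9.78, 10.03, 9.85, 10.23 and 10.31 after 4 doses, apart from them. In experiment 1 it was at 8.61, 8.42 and 8.97 in controls and at 8.71, 8.14 and 8.04 after 4 doses, which overlapped. Trim63 fell by 0.87 ± 0.16 on the log2 scale (adjusted p = 0.000708). Fbxo32, the ligase atrogin-1, fell by 0.76 ± 0.14 (adjusted p = 0.000926), with a change of -1.09 in experiment 2 and -0.22 in experiment 1.

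The other 3 that fell were Klf15, a glucocorticoid-responsive factor (-0.45 ± 0.09, adjusted p = 0.00339), the autophagy gene Gabarapl1 (-0.51 ± 0.12, adjusted p = 0.00939) and Ddit4, an inhibitor of mTOR (-0.99 ± 0.28, adjusted p = 0.0398). The call of Ddit4 was lost in 10 of 16 fits that left out 1 array. Foxo1 was 0.55 ± 0.21 lower and Foxo3 0.18 ± 0.11 lower without passing (adjusted p = 0.185 and 0.482). Of 21 Asb and kelch adaptor genes of muscle, 1 rose and 5 fell. Asb15 fell by 0.90 ± 0.13 (adjusted p = 2.19e-05) and Klhl38 by 0.99 ± 0.16 (adjusted p = 8.8e-05). The change of Asb15 was -0.49 in experiment 1 and -1.14 in experiment 2. That of Klhl38 was -0.29 in experiment 1, where the groups overlapped, and -1.41 in experiment 2. Of 37 cytoplasmic ribosomal protein genes 0 were called (1 at an unadjusted p under 0.05), and of 22 AKT and mTOR pathway genes 1 rose, Grb10.

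**Figure D4:**
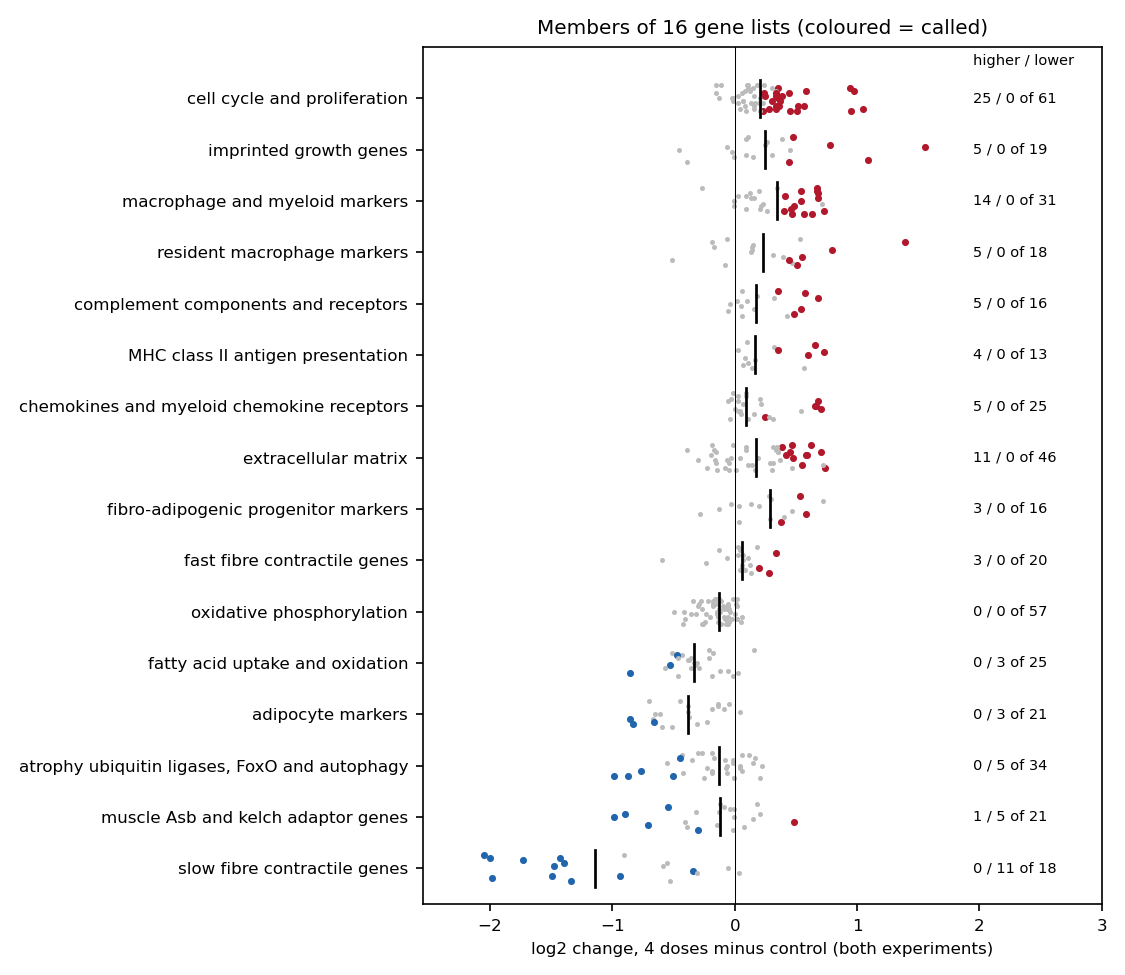
Log2 change after 4 doses (x axis) of the measured members of 16 gene lists (rows), 1 point per gene, coloured where the gene rose or fell, with a black line at the list median and the counts of both at the side. Cell cycle and macrophage points lie to the right of 0 (25 and 14 rose, 0 fell), and slow fibre points to the left (11 fell, 0 rose).

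The remaining genes among the 15 largest rises had other roles. The adenosine triphosphatase subunit family gene Atp1b4 rose by 0.86 ± 0.16 (adjusted p = 0.00116), the membrane protein gene Itm2a by 0.86 ± 0.11 (adjusted p = 2.71e-06) and the peptidase family gene Prepl by 0.86 ± 0.12 (adjusted p = 1.3e-05). Tnfsf10, the death receptor ligand TRAIL, rose by 1.0 ± 0.20 (adjusted p = 0.0016), and treated array 1 of experiment 2 was its highest at 8.28. Tnfaip2, a cytokine-induced gene, rose by 1.03 ± 0.18 (adjusted p = 0.000523). Odf3l2 completes the 15 largest falls at -1.34 ± 0.32 (adjusted p = 0.0107), with overlap in experiment 1.

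The difference between 4 doses and 1 dose was a contrast of these classes in the fit over all 35 arrays, so control values enter it only through the spread and the experiment term. The 4-dose class was higher for 55 genes (0.276%) and lower for 9 (0.0451%). Imprinted and cell cycle genes carried the largest of these differences. Igf2 was at 6.16, 6.47 and 6.24 after 1 dose in experiment 1 and at 8.11, 7.84, 7.93, 7.88 and 8.05 in experiment 2, below every 4-dose array. It was 1.44 ± 0.10 higher after 4 doses than after 1 (adjusted p = 3.36e-12). Mest was 0.98 ± 0.11 higher (adjusted p = 1.79e-06), Cdkn1c 0.87 ± 0.07 (adjusted p = 6.52e-10) and Ccnd1 0.83 ± 0.11 (adjusted p = 1.24e-05). Of the 61 cell cycle genes 10 were higher after 4 doses than after 1, and 0 lower.

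Also among the 8 largest were the MHC class II gene H2-Aa (0.79 ± 0.16, adjusted p = 0.0163), Cd93 (0.78 ± 0.16, adjusted p = 0.0145), Cyp4f39 (0.73 ± 0.17, adjusted p = 0.0475) and Adh1 (0.73 ± 0.17, adjusted p = 0.0422). Adh1, an alcohol dehydrogenase, differed from control by -0.07 ± 0.17 after 4 doses. The 8 named genes lower after 4 doses than after 1 ran from Myom3 (-0.65 ± 0.14, adjusted p = 0.0293) to Fst (-0.27 ± 0.06, adjusted p = 0.0422), with Klf10, Rpia, Gpt, Wnt5a, Tnfrsf19 and Igfbp3 between them. Many of these calls did not hold when single arrays were left out, whichever array it was for most of the fits. Leaving out 1 of the 16 arrays of both classes removed the call of Cyp4f39 in 14 fits, of Klf10 and Tnfrsf19 in 13 each, of Gpt and Wnt5a in 12, of Fst and Igfbp3 in 11 and of Adh1 in 10. It removed those of Myom3 and Rpia in 6 fits each and of H2-Aa in 2, while Igf2, Mest, Cdkn1c, Ccnd1 and Cd93 kept theirs in all 16. The count of 64 genes was 39 without 4-dose array 2 of experiment 1, and 41, 32 and 40 without 4-dose arrays 1, 4 and 5 of experiment 2. It was 27 without 1-dose array 3 of experiment 1 and 38 without 1-dose array 1 of experiment 2, alternatives chosen after seeing the data.

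Some of the largest changes were of a size after 1 dose that the test did not separate from 4 doses. Mss51 was at 4.61, 4.28 and 4.15 and at 6.89, 7.26, 7.62, 7.72 and 6.87 after 1 dose, overlapping the 4-dose values. Its difference between 4 doses and 1 was 0.20 ± 0.20 (adjusted p = 0.962). For Inmt that difference was -0.47 ± 0.23 (adjusted p = 0.667), for Trim63 0.06 ± 0.16 and for Fbxo32 0.26 ± 0.14, with adjusted p of 0.998 and 0.767. Differences that miss the threshold do not show equal responses. Gamt was 0.56 ± 0.11 higher after 4 doses than after 1 (adjusted p = 0.00721).

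Set beside the same control arrays, which the comparisons share, 222 genes were called after 1 dose (1.11%) and 8337 in Mstn-null muscle (41.8%), where 11 arrays entered. Igf2 differed from control by 1.55 after 4 doses, 0.12 after 1 dose and 0.36 in Mstn-null muscle. Cdkn1c differed by 0.78, -0.09 and 0.00 in that order, and Mki67 by 0.98, 0.26 and 0.24. Mss51 differed by -2.31, -2.50 and -0.29, and Inmt by -1.91, -1.44 and -1.88. Median changes of the slow fibre genes were -1.14, -0.58 and -1.92, those of the macrophage markers 0.35, 0.18 and 0.27, and those of the adipocyte markers -0.39, 0.01 and 0.05.

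**Figure D5:**
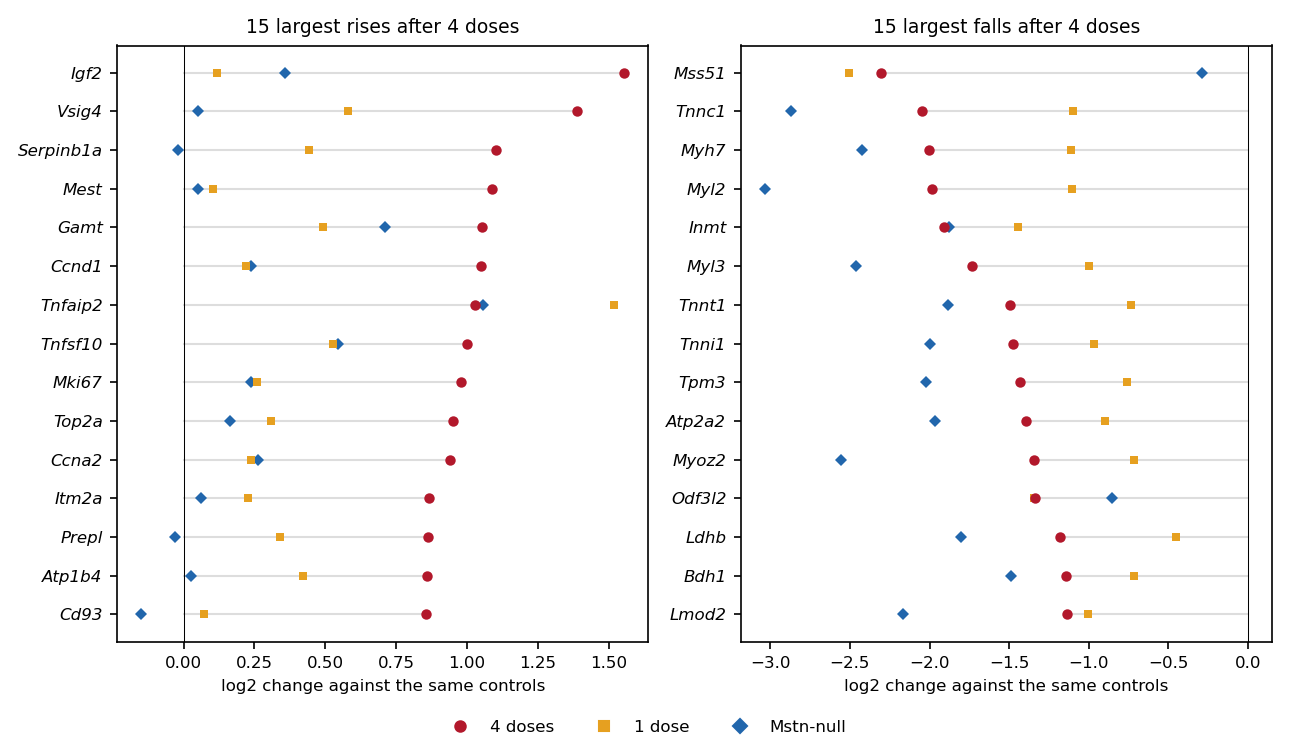
Log2 change against the same control arrays (x axis) of the 15 largest rises and 15 largest falls after 4 doses (rows), with 1 symbol for each of 4 doses, 1 dose and Mstn-null. Igf2, Mest and the cell cycle genes lie far from 0 after 4 doses and near it in the other classes, Mss51 is low after both dose schedules, and slow fibre genes are lowest in Mstn-null muscle.

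As a contrast in the same fit, 4 doses and Mstn-null muscle differed for 4019 genes (20.2%), 2275 of them higher after 4 doses and 1744 lower. With the interquartile range of each array as a covariate the count was 394. It was 6494 without 4-dose array 3 of experiment 1, and 2338 and 2282 without 4-dose arrays 1 and 5 of experiment 2. Mstn, the gene that is null in the comparison class, was 2.69 ± 0.23 higher after 4 doses, the largest such difference among named genes. Igf2 was 1.20 ± 0.09 higher (adjusted p = 1.01e-10) and Mest 1.04 ± 0.11. Casq2, the slow fibre and cardiac calsequestrin, was 1.70 ± 0.24 higher and the cytochrome oxidase subunit Cox6c 1.48 ± 0.26 higher. In the fit without the interquartile range as a covariate, 42 of the 57 oxidative phosphorylation genes were higher after 4 doses than in Mstn-null muscle, and 0 lower. Over all genes these shares were 11.4% and 8.75%. Mstn-null arrays of experiment 2 correlated with each other across genes at 0.954 to 0.994.

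On the lower side, Mss51 differed by -2.02 ± 0.18 from Mstn-null muscle (adjusted p = 2.33e-09). The lipid synthesis genes Fasn and Acaca were at -1.50 ± 0.40 and -1.23 ± 0.31, and the muscle methyltransferase gene Mettl21e was at -1.43 ± 0.26. Igfn1, a Z-disc protein gene, was at -1.23 ± 0.15 and also fell against control, by 0.97 ± 0.16 (adjusted p = 0.000182). Gpx3, a secreted peroxidase, was at -1.17 ± 0.15 and fell against control by 1.02 ± 0.17 (adjusted p = 0.000139).

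The change after 4 doses differed between the experiments for 1 gene (0.00502%) in the limma test of that difference, while 1471 genes had an unadjusted p under 0.05. The gene was Chac1, an enzyme that degrades glutathione. In experiment 1 it was at 6.73, 7.15 and 6.64 in controls and at 7.83, 7.19 and 7.41 after 4 doses. The follow-up put it at 9.48, 9.41, 9.69, 9.24 and 9.32 in controls and at 8.51, 7.77, 7.75, 7.62 and 7.71 after 4 doses. The treated arrays were all above the controls in the first and all below in the second, and the changes of 0.64 and -1.56 differed by -2.19 ± 0.32 (adjusted p = 0.00134). The next 4 genes were Glul (-1.03), Asb2 (-0.81), Alox5ap (0.92) and Npc1 (-1.02), each with an adjusted p of 0.0568 for the difference. The count was 1 to 4 genes when 1 control or 4-dose array was left out.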

How the data were processed

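Total RNA of quadriceps muscle, 1 array per sample, was biotin-labelled with a whole-transcript sense target assay, per the labels' protocols. The deposited values are log2 expression values that the authors made with RMA, per the submitters' processing notes. R 2.11.1 and limma 3.4.4 are listed there with no stated use. That the log is to base 2 follows from the spread of the values. Whether both experiments were normalized together, and the genome build behind the probes, are not given in the sources used here. Signal over background was not used.

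Of 35556 rows, 21789 carried 1 gene symbol, 1621 several and 12146 none. RefSeq (GRCm38.p6) matched 21698 of the first, and the brightest row of each gene was kept (999 genes had several), which left 19938 genes. With R 4.3.3, limma 3.58.1 (lmFit, then eBayes, default settings, two-sided) fitted class and experiment over all 35 arrays, and a fit of 8 group means tested the difference between experiments. In simulated data with the spread of these arrays (19938 genes) it called 91% and 99% of genes changed by log2 0.5 and 1 between 4 doses and control, 89% and 100% between 4 doses and 1 dose, 88% and 100% between 4 doses and Mstn-null, and 21% and 87% for the difference between experiments. In the same order of comparisons, 5, 17, 10 and 2 unchanged genes were called. The simulated noise was independent between genes, so shifts that the genes of an array share were not simulated. Real recovery can therefore be lower. Replicate numbers recur in each class. Deviations of same-numbered control and 4-dose arrays correlated at -0.53 to 0.34, so the numbers were not taken to pair mice.

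Named genes are the 15 largest rises and falls called with the same sign in both experiments, up to 4 members of each list with the smallest p, the 8 largest differences each way against 1 dose and Mstn-null, the 5 smallest p for the difference between experiments, and members of the ligand, antagonist, IGF and atrophy lists. Genes of a count of 5 or fewer and those stated as such were added after their values were seen. The gene lists, the comparison and the alternatives were chosen with earlier results of these data known. Alternatives covered scaling, array range, dim genes, rows, the variance model, single experiments, a replicate block and arrays left out.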

Additional observations from a re-analysis of the deposited data

Results flagged for a closer look

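In the follow-up, 5 arrays a group allowed a check for a value that stands far from its group, as the gap to the nearest array divided by the group's range. It was made for 356 pairs of a named gene or list mean and a group, and 14 (3.93%) passed Dixon's critical value of 0.71. Chance alone flags about 1 in 20. Among control arrays, array 3 was lowest for H2-Ab1 (6.78 against 7.51 to 7.61, ratio 0.8728), for C1qb (6.81 against 7.39 to 7.51, ratio 0.8297) and for the mean of the MHC class II genes (6.01 against 6.23 to 6.27, ratio 0.8384), and highest for Ccl7 (5.93 against 5.54 to 5.65, ratio 0.7145). Control array 1 was highest for Itgax (5.45 against 4.90 to 5.04, ratio 0.748) and Kif11 (4.83 against 4.63 to 4.68, ratio 0.7829). Control array 4 was highest for Msr1 (4.83 against 4.50 to 4.56, ratio 0.8067) and lowest for Cenpf (4.42 against 4.60 to 4.67, ratio 0.7402), and control array 5 was lowest for Cbr2 (6.68 against 6.88 to 6.95, ratio 0.7556).

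Among 4-dose arrays, array 3 was lowest for Vsig4 (5.81 against 6.54 to 6.73, ratio 0.7872) and Loxl1 (7.44 against 7.79 to 7.91, ratio 0.7409), and highest for Itgax (5.76 against 5.35 to 5.47, ratio 0.715). Array 1 was highest for Tnfsf10 (8.28 against 7.01 to 7.38, ratio 0.7102) and lowest for Cenpf (4.71 against 4.84 to 4.86, ratio 0.8877). The treated values of Vsig4 and Tnfsf10 still lay above every control array. For Chac1 the change after 4 doses differed by -2.19 in experiment 2 from that in experiment 1, by a test of that difference (adjusted p = 0.00134).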

How the results depend on the processing

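Of 163 named or listed genes that were called, 14 kept their call in each of the 28 or 29 alternatives run for single genes, among them Igf2, Cdkn1c, Ccnd1, Mki67, Gamt, Grb10 and Mss51, and 115 kept it whenever 1 control or 4-dose array was left out. Leaving out each of the 35 arrays in turn, those of 1 dose and Mstn-null as an addition chosen after seeing the data, gave 456 to 698 genes called after 4 doses, 282 to 413 higher and 165 to 288 lower, 27 to 83 against 1 dose and 2282 to 6494 against Mstn-null. Leaving out each control and 4-dose array gave 1 to 4 genes for the difference between experiments and 1 to 12 for slow fibre genes. With only the 16 arrays of both classes, 964 genes were called, 463 of them lower, and 28 for the difference between experiments. The fits against 1 dose and Mstn-null could not be made with those arrays alone. Centred arrays gave 232 higher and 317 lower. With the interquartile range as a covariate, counts were 135 against 1 dose, 394 against Mstn-null and 5 slow fibre genes. That range differed by -0.09 on treated arrays from controls (two-sided exact permutation p = 0.287), and the standard deviation by -0.03 (exact permutation p = 0.299).

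Without the dimmest 25% of genes, 15 cell cycle genes rose. Experiment 1 alone gave 94 genes, 34 higher and 60 lower, 13 against Mstn-null, 2 cell cycle, 3 imprinted, 0 macrophage, 1 matrix and 0 slow fibre genes. Experiment 2 alone also gave 0 slow fibre genes. In experiment 1 alone the changes of Glul (0.19), Npc1 (0.17), Msr1 (-0.0028) and Cd209f (-0.068) and the medians of resident macrophage (-0.042) and complement genes (-0.00043) had the other sign. Under quantile normalization the fast fibre median was -0.0064. With a replicate block, 376 genes rose, 278 fell and 1212 differed from Mstn-null, and it moved no other count in this paragraph by over 1.5 times. Without 4-dose arrays 1 and 3 of experiment 2, 398 genes were called, 141 lower, 27 against 1 dose, 2089 against Mstn-null and 0 slow fibre genes. Without 4-dose array 3 of both experiments, 129 were lower, 7826 differed from Mstn-null and 0 slow fibre genes fell. Without control array 3 of both, 403 were called, 121 lower, with 1 slow fibre gene. The cause of these shifts was not tested. The difference between experiments was not run with the covariate, the block or a single experiment.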
